A study of Caenorhabditis elegans with 2 samples.

Results

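Small nucleolar RNA (snoRNA) genes of Caenorhabditis elegans drew peaks in a chromatin immunoprecipitation of DAF-16, the FOXO transcription factor on which insulin-like signalling acts. The regions described here are the entries of the pooled peak list on the nuclear chromosomes whose summit lay inside or within 250 bp of an annotated snoRNA gene and more than 100 bp from any transfer RNA (tRNA) gene. There were 204 of them among 29975 nuclear entries, and 80 of these were also in the optimal set. That set is the authors' list after thresholding on the irreproducible discovery rate. On the nuclear chromosomes it held the entries of highest pooled signal, so an entry in it need not rank high in each replicate. These 80 are called optimal members below. The 346 nuclear snoRNA genes of the annotation were the genes that could be met.

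The study immunoprecipitated with an antibody against GFP from whole hermaphrodite L4 larvae of strain ZM8745, 54 hours after synchronization as starved L1 larvae. The animals carried the daf-16(mu86) deletion, the daf-2(e1370) allele of the insulin receptor gene and the transgene hpSi15, in which the intestinal promoter Pges-1 drives GFP::daf-16a. The tagged protein was thus made from an intestinal promoter in animals without their own daf-16. Genotype and strain note disagree on whether the tag is at the start or the end of the protein. The 2 samples were biological replicates of a single group, and no control library was analysed here, so conditions could not be compared and background signal in untagged animals was not measured. The deposited lists hold positions, signal values and significance values and no read counts, so the depth is unknown. Since there was no contrast between samples, values are given as descriptions, and shares have exact (Clopper-Pearson) 95% intervals that cover the counting of regions or genes only.

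SnoRNAs are short nuclear RNAs that guide the modification of other RNAs, mostly ribosomal RNA. Box C/D snoRNAs pair with their target and direct methylation of the ribose by fibrillarin, and box H/ACA snoRNAs direct the conversion of uridine to pseudouridine by dyskerin. Many animal snoRNAs are cut from introns of a host gene, while others are transcribed from promoters of their own. The tRNA genes, which RNA polymerase III transcribes, carry internal promoter elements called the A box and the B box. Small nuclear RNA (snRNA) genes carry a proximal sequence element before their start.

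The bases before the snoRNA start are shown first, because a pair of tRNA-like boxes or an snRNA-like word recurred there among the members. Each line runs from 100 bases before the snoRNA gene to its first 20 bases, 5′ to 3′ on the strand of the snoRNA, and was read from the ce11 reference (WBcel235, RefSeq). Capitals mark the matches. The A box searched was TGGCNNAGTGG and the B box GGTTCGANTCC, both built from the tRNA genes of the same genome, with up to 2 mismatches each. The word searched was GCGGAACCC, the 9-base word found most often before snRNA genes, with up to 1 mismatch. The first 6 are members with an A and B box, taken from the 20 highest. T03F7.8 (chrV:11314158-11314277, plus strand) lies in an intron of cutl-18 on the opposite strand. W03C9.9 (chrII:11960798-11960917, plus strand), Y75B12B.12 (chrV:15191074-15191193, minus strand), F32E10.10 (chrIV:7574022-7574141, plus strand), C53B7.8 (chrX:6867838-6867957, plus strand) and F30H5.4 (chrIII:502704-502823, plus strand) have summits outside protein-coding genes.
T03F7.8: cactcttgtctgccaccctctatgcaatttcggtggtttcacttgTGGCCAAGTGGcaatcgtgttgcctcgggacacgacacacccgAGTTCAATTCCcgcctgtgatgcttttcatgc
W03C9.9: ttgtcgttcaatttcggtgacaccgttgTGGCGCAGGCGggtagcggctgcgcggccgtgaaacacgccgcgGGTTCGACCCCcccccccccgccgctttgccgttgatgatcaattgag
Y75B12B.12: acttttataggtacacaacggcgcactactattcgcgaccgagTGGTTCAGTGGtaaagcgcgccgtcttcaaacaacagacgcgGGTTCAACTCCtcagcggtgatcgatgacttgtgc
F32E10.10: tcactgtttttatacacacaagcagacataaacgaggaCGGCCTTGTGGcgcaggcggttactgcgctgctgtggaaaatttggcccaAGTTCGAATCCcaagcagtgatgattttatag
C53B7.8: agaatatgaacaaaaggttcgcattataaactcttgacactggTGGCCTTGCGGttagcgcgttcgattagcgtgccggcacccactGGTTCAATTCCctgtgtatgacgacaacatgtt
F30H5.4: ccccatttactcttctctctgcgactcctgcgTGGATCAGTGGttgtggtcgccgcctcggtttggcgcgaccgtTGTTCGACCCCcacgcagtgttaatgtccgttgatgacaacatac
The next 3 carry the snRNA word. ZK994.7 (chrV:8500479-8500598, plus strand) lies in an intron of pxn-1, and its word has 1 mismatch. Y53F4B.47 (chrII:15025874-15025993, minus strand) has its summit outside protein-coding genes and F01D5.12 (chrII:14018422-14018541, minus strand) lies in an intron of F01D5.10, and both have the exact word.
ZK994.7: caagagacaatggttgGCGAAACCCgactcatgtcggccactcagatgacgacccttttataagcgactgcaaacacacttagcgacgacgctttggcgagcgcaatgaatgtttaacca
Y53F4B.47: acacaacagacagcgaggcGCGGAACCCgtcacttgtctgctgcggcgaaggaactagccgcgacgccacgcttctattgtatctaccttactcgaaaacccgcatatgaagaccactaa
F01D5.12: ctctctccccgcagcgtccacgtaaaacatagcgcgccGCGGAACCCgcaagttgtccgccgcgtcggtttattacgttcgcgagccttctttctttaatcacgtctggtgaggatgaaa
The last 2 are among the 20 highest and matched neither search at these settings. T06C12.16 came close, with an exact A box followed by GGTTCGA, the first letters of the B box. Its B box has more than 2 mismatches in all. The sequences shown are a selection and do not keep the proportions of the 20 highest members. Of those 20, 9 had the pair of boxes, 1 had the word and the rest had neither. C51F7.4 (chrV:12303499-12303618, plus strand) overlaps a coding exon of frm-7 and has its summit in an intron of it, and T06C12.16 (chrV:15873907-15874026, minus strand) has its summit outside protein-coding genes.
C51F7.4: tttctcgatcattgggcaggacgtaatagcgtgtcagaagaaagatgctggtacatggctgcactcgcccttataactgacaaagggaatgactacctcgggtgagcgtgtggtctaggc
T06C12.16: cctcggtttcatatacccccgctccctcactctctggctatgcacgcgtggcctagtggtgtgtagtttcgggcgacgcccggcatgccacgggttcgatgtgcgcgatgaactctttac

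Of the 204 members, 80 (39.2%, interval 32.5% to 46.3%) were in the optimal set, where 4.88% of all nuclear entries of the pooled list were. The nuclear optimal entries were those of highest signal in the pooled list, so higher signal in them is a matter of selection. Among entries within 100 bp of tRNA genes 346 of 505 (68.5%, interval 64.3% to 72.5%) were optimal, and among entries within 250 bp of snRNA genes 32 of 100 (32%, interval 23.0% to 42.1%) were. The 80 optimal members made up 5.46% of the 1464 nuclear optimal entries. They held a larger part of the top of the list: 7 of the 20 highest nuclear entries, 14 of the 50 highest, 23 of the 100 highest and 37 of the 200 highest were members. The median signal of the optimal members was 185 (range 84.4 to 556), while that of the other 1384 nuclear optimal entries was 116 (range 84.3 to 474). Signal is the authors' value per peak, whose scale is not stated, and it serves only for ranks and descriptions inside 1 list. Their deposited −log10 q-value was 3.37 at the median and at most, with a lowest of 2.69, against a median of 0.214 for the other members.

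**Figure D1:**
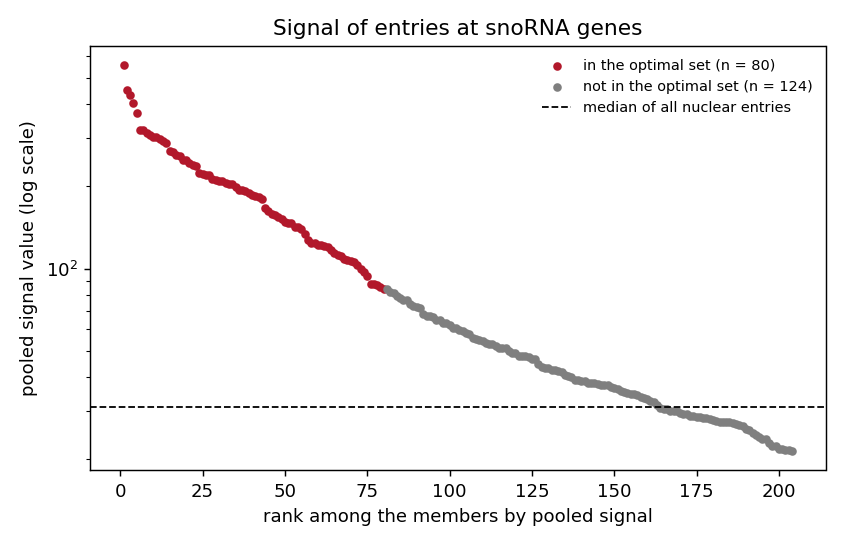
Pooled signal value (log scale) of the 204 members by their rank among the members, red in the optimal set and grey outside it. Signals run from 556 down to 21.5 with no step at the border of the optimal set near 84.4, and most members lie above the dashed median of all nuclear entries, 31.2.

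ZK994.7, a snoRNA gene in an intron of the peroxidasin gene pxn-1, had the highest nuclear entry of the whole pooled list. Its signal was 556 in the pooled list, 320 in replicate 1 and 242 in replicate 2, with ranks of 25 and 19 in the replicates. Replicate ranks here and below count all entries, also those off the nuclear chromosomes. Counted in that way its pooled rank was 23. The summit lay 27 bp before the snoRNA gene and 5663 bp from the nearest start of a protein-coding transcript. A tRNA gene lay 916 bp from the summit, beyond the interval of the peak, which was 311 bp wide. C51F7.4, which overlaps a coding exon of frm-7, a gene of a FERM domain protein, and has its summit in an intron of it, had 450 in the pooled list, 223 in replicate 1 and 228 in replicate 2. Its summit was inside the snoRNA gene, 41 bp after its first base, and before the first base of C51F7.3, the next snoRNA gene on that strand. T03F7.8, in an intron of the cuticlin-like gene cutl-18 and on the opposite strand to it, had 432, 258 and 172. W03C9.9, outside protein-coding genes, had 405, 233 and 174, and a tRNA gene lay 1382 bp away. Each of these 4 members was in the top 40 of both replicate lists.

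The 20 highest members had pooled signals from 249 to 556. In replicate 1 they ranged from 137 to 320 and in replicate 2 from 92.2 to 242, and all 20 were among the 200 highest entries of both replicates. Of these, 10 had the summit in an intron and 10 outside protein-coding genes, 17 had it before the snoRNA start, and 17 of the snoRNA genes were under 100 bases long. With the summit outside protein-coding genes, Y75B12B.12 had a pooled signal of 372, T06C12.16 of 322, F32E10.10 of 315, C53B7.8 on chromosome X of 309, Y23H5B.10 of 304, T19B4.8 of 298, T02E1.9 of 287, F30H5.4 of 270 and ZK265.10 of 261. These loci were not all close to protein-coding starts: the nearest start was 200 bp away at Y75B12B.12 and 16205 bp away at Y23H5B.10. In introns on the strand of the host were F55A11.10 in F55A11.6 with 322, C27H6.5 in unc-41 with 304, F38E11.14 in cng-3 with 293 and Y43F8C.22 in Y43F8C.7 with 249. The host unc-41 encodes a stonin of synaptic vesicle recycling and cng-3 a cyclic nucleotide-gated channel subunit. On the strand opposite to the host were ZK484.9 in haf-9, a half-molecule ABC transporter, with 267, C04G6.12 in the MAP kinase gene mpk-2 with 260 and C27H5.9 in pdl-1 with 251.

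At the border of the optimal set the values ran on without a gap. Just inside were smy-2 with a pooled signal of 87.2, C16D9.10 with 85.8 and F54F11.6 with 84.4. Just outside were D2021.6 with 84.1, another entry by C16D9.10 with 82.0 and C26C6.13 with 81.7. The border therefore separates members of nearly equal signal.

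All 80 optimal members overlapped an entry in both replicate lists, as did 1378 of the other 1384 nuclear optimal entries (99.6%). Of the 80, 68 were among the 1489 highest entries of both lists, and this share was not counted for the others. As a description across sites, with no p, Spearman's rho between the replicate signals of these 80 was 0.839, and that of 1378 other nuclear optimal entries listed in both was 0.513. The pooled signals of the 80 were spread more widely, with quartiles 122 and 245 against 98.1 and 155 for the 1384 others. The part of this spread in the values of rho was not tested. All these sites share their libraries and were selected by signal in the list pooled from both replicates. Replicate 1 had the higher signal at 62 of 80 optimal members and at 1012 of the 1378 others, so the order of the replicates was alike in both. The median signal of the optimal members was 100 in replicate 1 (range 27.2 to 320) and 83.3 in replicate 2 (range 28.7 to 242).

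Among the optimal members, 5 had the most unlike ranks in the replicates. ZK546.18, which overlaps a noncoding exon of mdt-4 or ZK546.19 and has its summit in an intron of the Mediator subunit gene mdt-4, ranked 7217 in replicate 1 with a signal of 27.2 and 663 in replicate 2 with 59.8. R07G3.16 ranked 5498 with 30.0 and 548 with 65.1, and T26A8.6 ranked 2382 with 40.8 and 491 with 68.0. C46C2.8 ranked 451 with 85.4 and 98 with 112. T19B4.8 went the other way, with rank 37 and 207 in replicate 1 and rank 194 and 92.2 in replicate 2. ZK546.18 and R07G3.16 thus ranked low in replicate 1 and high in replicate 2. Of the 124 members outside the optimal set, 106 overlapped an entry in replicate 1 and 96 one in replicate 2. Such an entry can belong to a neighbouring optimal member. Both entries by C16D9.10, 1 inside and 1 outside the optimal set, had rank 1194 in replicate 1. These counts are therefore upper limits for entries of their own.

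**Figure D2:**
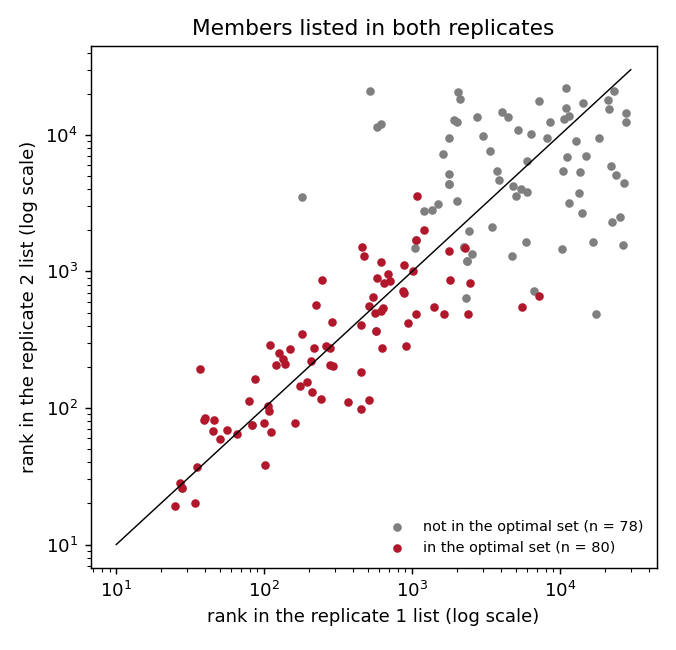
Rank of each member in the replicate 1 list against its rank in the replicate 2 list (both axes log scale) for the 158 members listed in both, red in the optimal set and grey outside it, with the line of equal ranks. The highest members lie near the line, and ZK546.18 (7217 and 663) and R07G3.16 (5498 and 548) are the red points farthest to the right.

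Summits of optimal members gathered just before the snoRNA start. The summit lay upstream of the first base of the nearest snoRNA gene in 57 of 80 (71.3%, interval 60.05% to 80.8%), inside the gene in 18 and downstream in 5. The median position was 22.5 bp upstream, with quartiles 50.3 bp before and 2 bp after the first base, and 50 of the 80 lay 1 to 60 bp upstream. Members outside the optimal set were spread over the window: 53 of 124 (42.7%, interval 33.9% to 51.9%) were upstream, 22 inside and 49 downstream, with a median 58.5 bp after the first base, and 18 lay 1 to 60 bp upstream. Summit precision differs with peak width, since 43 of the 80 optimal members were 420 bp wide with the summit exactly at their centre. Among the 37 narrower ones, which were 105 to 332 bp wide and included all 20 of the highest members, 31 of 37 (83.8%, interval 68.0% to 93.8%) were upstream, with a median of 29 bp. Between the pooled and replicate lists the summit of an optimal member moved by a median of 10 bp for replicate 1 and 13.5 bp for replicate 2.

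**Figure D3:**
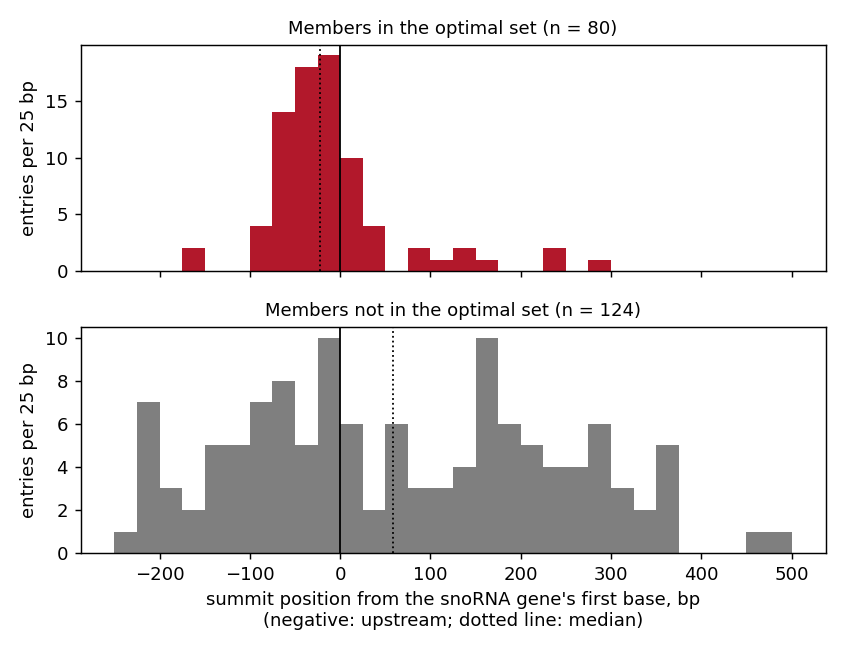
Number of member summits per 25 bp by position from the first base of the nearest snoRNA gene on its own strand, for the 80 optimal members (top) and the 124 others (bottom), with the medians dotted. Optimal summits peak just before the start (median 22.5 bp upstream), and the others are spread from 236 bp upstream to 487 bp downstream.

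Optimal members lay in introns and between genes in like numbers. The summit was in an intron of a protein-coding gene in 38 of 80 (47.5%, interval 36.2% to 59.0%) and outside protein-coding genes in 39 (48.8%, interval 37.4% to 60.2%), and 2 were in coding exons and 1 in a noncoding exon. Of the other nuclear optimal entries, 25.7% were in introns (interval 23.4% to 28.0%) and 64.0% outside protein-coding genes (interval 61.4% to 66.5%). The median signal was 184 for intronic optimal members and 192 for those outside genes, a difference that is small beside the range of either. The 38 intronic ones lay in 38 different hosts, with the snoRNA on the strand of the host in 30. Further hosts included unc-70 (beta-spectrin), mix-1 (a condensin subunit), fars-1 (phenylalanyl-tRNA synthetase), rol-3 (a receptor tyrosine kinase) and cogc-3 (a Golgi tethering subunit). A protein-coding transcript started within 500 bp of 22 optimal members, and the median distance to the nearest one was 1032 bp. The nearest tRNA gene was within 2000 bp of 5 of the 80, and the median distance to one was 134667 bp.

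Counted by gene, 79 of 346 snoRNA genes (22.8%, interval 18.5% to 27.6%) had an optimal summit inside or within 250 bp, another 98 had only a pooled entry outside the optimal set, and 169 had none. By the same rule 2.35% of 45932 other annotated nuclear genes had an optimal summit. By chromosome the share was 19 of 55 on V, 22 of 71 on II, 14 of 59 on IV, 15 of 74 on I, 7 of 54 on III and 2 of 33 on X, and the intervals of neighbours in that order overlap. The interval on X (0.743% to 20.2%) lies below those on V (22.2% to 48.6%) and, narrowly, II (20.5% to 43.1%), and overlaps those on I, III and IV. The share of all genes with an optimal summit was not counted by chromosome. Whether X differs for snoRNA genes in particular was therefore not tested. The genes with an optimal summit were shorter, with a median of 91 bases against 133 for genes with none. Under 100 bases 42 of 93 genes had one (45.2%, interval 34.8% to 55.8%), and at 100 bases or more 37 of 253 did (14.6%, interval 10.5% to 19.6%). Box C/D signs, here TGATGA with up to 1 mismatch in the first 20 bases and CTGA in the last 15, were found in 43 genes, of which 21 had an optimal summit. ACA placed 3 bases from the end, a sign of the H/ACA class, was found in 56 others, of which 15 had one. Of the remaining 247 genes 43 had one, so the class of most was not read here.

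The host genes were then compared. Of 142 snoRNA genes lying in an intron on the strand of the host, 29 had an optimal summit, and of 27 on the opposite strand 7 had one. None of the 19 snoRNA genes within ribosomal protein genes, here those named rpl or rps, had one (exact interval up to 17.6%). In introns on the host strand of genes without these names 29 of 123 did (23.6%, interval 16.4% to 32.1%), and the intervals overlap. The split by ribosomal protein host was made after values were seen.

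A pair of tRNA-like boxes stood before many of the genes with an optimal summit. From 150 bases before to 20 bases after the snoRNA start, on its strand, an A box followed by a B box 25 to 120 bases later was found in 26 of the 79 genes with an optimal summit (32.9%, interval 22.7% to 44.4%). It was found in 2 of the 98 genes with a pooled entry only (2.04%) and in 3 of the 169 with none (1.78%). Read the other way, 26 of the 31 snoRNA genes with the pair had an optimal summit (83.9%, interval 66.3% to 94.5%). With 1 mismatch per box, 5 of 9 genes with the pair had an optimal summit (55.6%, interval 21.2% to 86.3%), and the pair was before 6.33% of the 79. With 3 mismatches 39 of 76 did (51.3%, interval 39.6% to 63.0%), and it was before 49.4% of the 79. The setting of 2 mismatches was chosen after seeing the data. At that setting the 5 others were F12F6.11, R12E2.17, R166.7, T23B12.13 and Y59E1B.14. Searched in the reverse direction, the pair was in none of the 79 (exact interval up to 4.56%). In the same window of other genes it was present before 18 of 19973 protein-coding genes (0.0901%), 4 of 261 microRNA genes (1.53%) and 0 of 129 snRNA genes. The exact A box was found upstream of 11 of the 79 genes and the exact B box upstream of 1, so nearly all of these pairs hold mismatches. A match is a likeness in letters, and no factor was measured there.

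The pair stood in a narrow range of positions. In the 26 genes the A box began a median of 58.5 bases before the snoRNA start and the B box a median of 14.5 bases before it, with 32 to 51 bases from start to start. At T03F7.8 the boxes began 55 and 12 bases before the start, at Y75B12B.12 57 and 15, and at C53B7.8 57 and 13, as the capitals in the sequences above show. At F55A11.10 the pair taken was farther out, at 100 and 56. A second pair with as many mismatches lies nearer the start there, and of equal pairs the one farthest out was taken. The summit of the highest member of each gene lay between the start of the A box and the end of the B box in 16 of the 26. This count uses the pairs taken, and the summit of F55A11.10 lay between the boxes of its second pair only. No annotated tRNA gene overlapped the 150 bases before any of the 26, and the nearest tRNA gene to any of their summits was 1156 bp away. Genes annotated as other non-coding RNA overlapped those bases at 9 of the 26 and pseudogenes at 3.

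The pair occurred both in introns and outside genes. Among snoRNA genes with the pair, 15 of 18 in introns had an optimal summit, and 10 of 12 outside protein-coding genes did. Of the genes with the pair, 14 of 17 under 100 bases had an optimal summit (interval 56.6% to 96.2%) and 12 of 14 longer ones did (interval 57.2% to 98.2%). With the snRNA word these were 10 of 14 (interval 41.9% to 91.6%) and 7 of 21 (interval 14.6% to 57.0%). With neither the pair nor the word they were 18 of 62 (interval 18.2% to 41.9%) and 18 of 218 (interval 4.97% to 12.7%), so there the shorter genes had the larger share. None of the 19 snoRNA genes within genes named rpl or rps had the pair or the snRNA word. Examples in introns on the host strand are F55A11.10, D1046.6 in cfim-2 with a pooled signal of 244, C05D2.15 in madf-11 with 237 and C10C6.8 in catp-8 with 224.

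The snRNA word GCGGAACCC with up to 1 mismatch was before 17 of the 79 genes with an optimal summit (21.5%, interval 13.1% to 32.2%), 11 of 98 with a pooled entry only (11.2%, interval 5.74% to 19.2%) and 7 of 169 with none (4.14%, interval 1.68% to 8.35%). The intervals of the first and the last do not overlap, and those of the first and the second do. It was before 47 of 129 snRNA genes, on which it was chosen, and before 84 of 19973 protein-coding genes (0.421%). In the 17 genes it began a median of 63 bases before the snoRNA start, with a range from 61 to 84. Of 35 snoRNA genes with the word, 17 had an optimal summit (48.6%, interval 31.4% to 66.01%). No snoRNA gene had both the word and the pair of boxes. The remaining 280 genes had neither, and 36 of them had an optimal summit (12.9%, interval 9.17% to 17.4%).

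**Figure D4:**
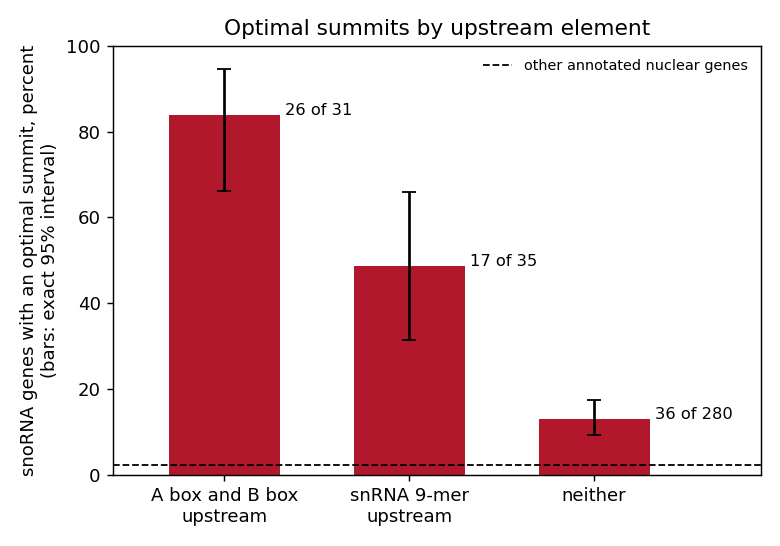
Percent of snoRNA genes with an optimal summit, by what was found from 150 bases before to 20 bases after the start, with exact 95% intervals as error bars and the level of other annotated nuclear genes (2.35%) dashed. The share was 83.9% with the pair of boxes, 48.6% with the snRNA word and 12.9% with neither at the mismatch settings shown, and 51.3% to 55.6% with the pair at 1 or 3 mismatches per box.

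Signals overlapped between these classes. The highest optimal member per gene had a median signal of 222 (range 103 to 432, n = 26) with the pair of boxes, 140 (range 84.4 to 556, n = 17) with the word and 180 (range 87.5 to 450, n = 35) with neither. Genes with the word thus include both ZK994.7, with the highest signal of all, and F54F11.6, with the lowest optimal one. Members of the third class, as set by these mismatch limits, were also near the top. Among them were C51F7.4, Y23H5B.10, C27H6.5 and T06C12.16, which narrowly missed the pair.

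**Figure D5:**
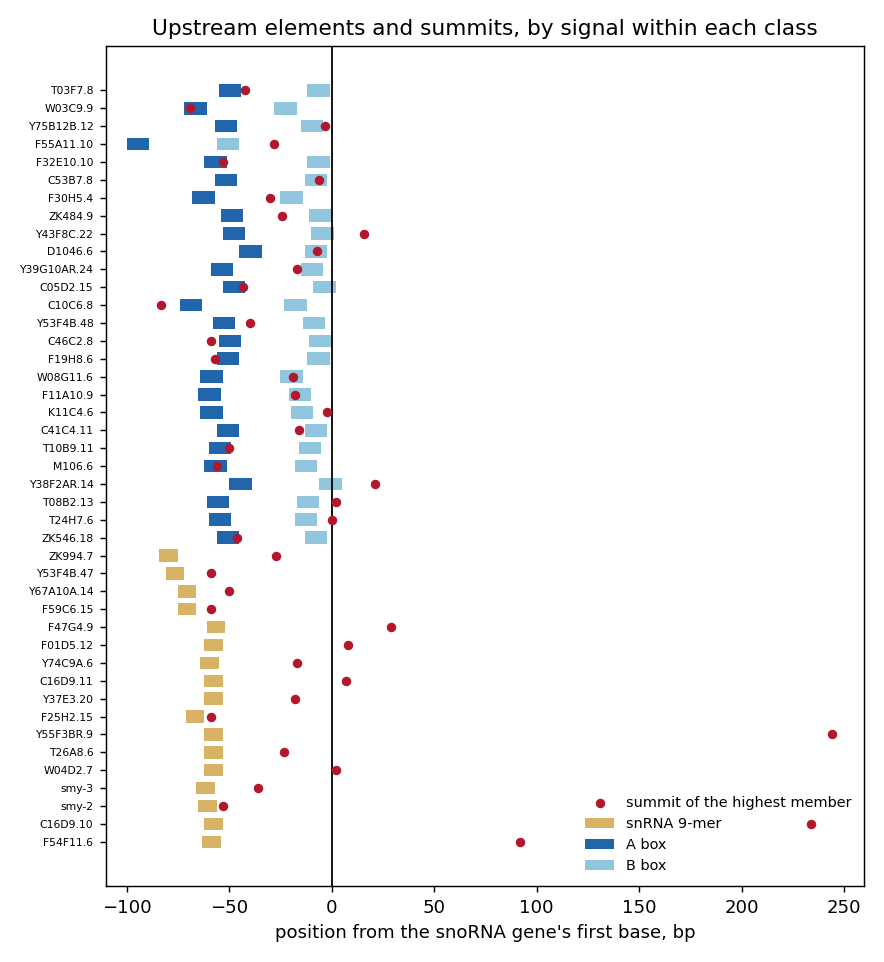
Positions of the A box, B box or snRNA word and of the summit of the highest member, in bp from the first base of the snoRNA gene, for the 43 genes with an optimal summit and one of these elements, ordered by signal within each class. Boxes and words stand in columns before the start (medians of 58.5, 14.5 and 63 bases), and in 16 of the 26 genes with boxes the summit lies between the start of the A box and the end of the B box. Of pairs with equal mismatches the one farthest out is drawn.

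The same elements were then counted around summits on either strand. The pair of boxes lay within 100 bp of 26 of 80 optimal members (32.5%, interval 22.4% to 43.9%) and 3 of 124 other members (2.42%, interval 0.502% to 6.91%). At optimal entries by tRNA genes, from which the boxes were built, it was within 100 bp of 274 of 346 (79.2%). At the 1038 optimal entries near neither kind of gene it was at 2.31%, and over all nuclear entries more than 100 bp from tRNA genes at 1.19%. GC content differed between these sets in another order: the bases within 50 bp of the summit were 54.0% G or C at the median in optimal members, 41.1% in other members, 49.5% in optimal entries by tRNA genes, 44.6% in the 1038 near neither and 35.6% over all nuclear entries. The part of base composition in the counts of boxes and words was not tested.

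Letters linked to DAF-16 in name or as forkhead words were not seen within 50 bp of the 80 optimal member summits. TGATAAG, the DAF-16 associated element, was within 50 bp of 0 of 80 summits on either strand (exact interval up to 4.51%), and it was at 118 of the 1038 optimal entries near neither snoRNA nor tRNA genes (11.4%, interval 9.50% to 13.5%). TGTTTAC, the forkhead core, was also at 0 of 80, against 42 of 1038 (4.05%, interval 2.93% to 5.43%), and the related TATTTAC was at 0 of 80, against 17 of 1038 (1.64%). Within 100 bp of the summit TGATAAG was at 2.5% of the optimal members and TGTTTAC at 1.25%. Over all nuclear entries, within 50 bp, these 3 words were at 2.97%, 1.31% and 2.30%. The upper limit of 4.51% for 0 of 80 lies above each of these shares. It also lies above the shares of TGTTTAC and TATTTAC at the 1038, and below that of TGATAAG only. The part of the GC content given above in these counts was not tested. Absence of these letters from the window says nothing about whether DAF-16 was there. GGTTCGA, the core of the B box, was at 8 of 80 (interval 4.42% to 18.8%), and at 127 of 346 optimal entries by tRNA genes (36.7%).

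Of the 174 snoRNA genes nearest to a member, 30 had 2 members, and 2 had 2 optimal ones. Y55F3BR.9 had 2 optimal summits, with pooled signals of 117 and 111, lying 244 and 44 bp after its first base. F25H2.15 also had 2, with signals of 127 at 59 bp before its first base and 97.3 at 161 bp after it. F25H2.15 is 1 of 16 snoRNA genes that share a run of at least 40 bases with another snoRNA gene, and 7 of these 16 had an optimal summit: F25H2.15, F59C6.15, K09E9.5, T26A8.6, Y53F4B.47, Y67A10A.14 and ZK643.9. Reads from such copies cannot always be placed, and how the authors placed them is not given in the sources used here, so the values of these 7 are uncertain.

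The genes for proteins that work with snoRNAs were read from a list of 11, in a window reaching from 1000 bp before a transcript start to 500 bp past it. None of the 11 had an optimal summit, where 4.2% of protein-coding genes did. Each had at least 1 pooled entry, but the share of all protein-coding genes with a pooled entry in this window was not counted. The highest were 71.3 at fib-1, which encodes fibrillarin, the box C/D methyltransferase, 71.1 at nol-56, a core box C/D protein, and 68.5 at nola-3, a core H/ACA protein. The others were ruvb-1 with 55.5 and ruvb-2 with 47.5, which encode ATPases of snoRNP assembly, nol-58 with 41.8, snu-13 with 38.6, Y48A6B.3 with 33.5, dao-5 with 28.1, dkc-1, the pseudouridine synthase, with 26.5 and garr-1 with 22.9. All are below the lowest optimal signal, 84.3. This follows from their lack of an optimal summit, since the optimal entries were those of highest signal.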

How the data were processed

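Chromatin immunoprecipitation was sequenced from 2 biological replicates of 1 group, and the ce11 lists were used: one per replicate, one for both pooled and the optimal set, of 28175, 22676, 30000 and 1489 entries. The signal per peak and the −log10 q-value are values the authors deposited, and no source used here names their scale, the aligner or the peak caller. The ce10 lists were not used. Replicate values of a member are those of the overlapping entry with the nearest summit, so neighbouring members can share an entry.

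Genes came from Ensembl release 115 on WBcel235, whose chromosomes hold all entries. Summits were set to genes, introns, exons and transcript starts with Python 3.11.15, numpy 2.4.6, pandas 2.3.3 and scipy 1.17.1. The boxes are the majority bases (50% or more) at the tRNA positions aligned on TGGCNNAGT and GGTTCGA. Searches and distances were tested on simulated data. The depth is unknown. No test between samples was possible, and shares have exact 95% intervals that cover counting only.

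The members, lists and searches were chosen with earlier results of these data known. Named regions are the 20 highest optimal members, 3 on each side of the optimal border, the 5 with the most unlike replicate ranks, snoRNA genes with several optimal summits, their hosts and the listed snoRNP genes; others were chosen after their values were seen. Alternatives changed the distances, the windows, the set of members, the mismatches and the replicate used.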

Additional observations from a re-analysis of the deposited data

How the results depend on the processing

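Of 86 alternatives over 17 results, 70 left the value within 1.5 times (counts) or within the interval or replicate spread (shares and distances), 16 moved it and 0 turned its direction. Counts and shares have no sign, so only the median position could have turned. With the summit required inside the snoRNA gene, the members fell to 40, the optimal members to 18 and the snoRNA genes with an optimal summit to 18. The optimal share of members was 49.3% within 100 bp and 31.4% within 500 bp. Over all members of the pooled list 53.9% of summits were upstream, with a median of -7.5 bp, and within 500 bp the median of optimal members was -27 bp.

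The mismatch settings were chosen after seeing the data. With 1 mismatch per box the pair was before 6.33% of genes with an optimal summit and 1.498% of the others. With 3 mismatches it was before 49.4% and 13.9%. Of the genes with the pair, 55.6% had an optimal summit at 1 mismatch and 51.3% at 3. The snRNA word with 0 mismatches was before 12.7% and 2.62%, and with 2 mismatches before 29.1% and 18.7%.

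With the highest entries of 1 replicate in place of the optimal set, optimal members numbered 74 to 83, snoRNA genes 74 to 81, the intronic share was 47.0% to 47.3%, the share outside protein-coding genes 48.6% to 51.8%, the upstream share 67.6% to 69.9% and the median position -26 to -21 bp. The pair was before 33.3% to 35.1% of these genes and 1.51% to 1.84% of the others, and the word before 18.9% to 19.8% and 7.17% to 7.72%. Of the genes with the pair 83.9% to 87.1% had such a summit, and of those with the word 14 to 16 of 35. With 2 replicates, no counts and no control library, the error of a single signal value could not be given.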
